A study of Saccharomyces cerevisiae Vin13 with 18 samples.

Results

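The genes described here are the 5 lactate genes of Saccharomyces cerevisiae, CYB2, DLD1, DLD2, DLD3 and JEN1, out of 5449 genes measured on the array. They were chosen by gene symbol as the genes of lactate uptake and lactate oxidation together with the DLD relatives. Each was represented by a single probe set, and all 5 were found. They were measured in VIN13, a commercial wine strain, during fermentation of Chardonnay must at 20 °C. The small scale used microaerobic 80 ml vessels, called vials below, and the large scale used commercial 300 L tanks. Cultures started from an OD600 of 0.1 and were sampled on day 2 (exponential growth), day 5 (early stationary phase) and day 10 (late stationary phase). The labels name 3 biological replicates for each scale and day, giving 6 groups and 18 arrays, all of the one strain, and the labels name no added agent. RNA came from whole cultures, so a change in each cell and a change in the share of cells that express a gene cannot be told apart. Each probe set's levels are compared only with its own.

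Lactate enters yeast through Jen1, a proton-coupled permease of the plasma membrane that carries lactate, pyruvate and other monocarboxylates and whose gene is repressed by glucose. Cyb2, the L-lactate cytochrome c oxidoreductase of the mitochondrial intermembrane space, carries heme and flavin, oxidises L-lactate to pyruvate and hands the electrons to cytochrome c. Dld1 does the same for D-lactate in the mitochondrial inner membrane. Dld2 in the mitochondrial matrix and Dld3 in the cytosol resemble Dld1 but act on D-2-hydroxyglutarate, and Dld3 can couple this to the reduction of pyruvate to D-lactate. D-lactate also arises in yeast from methylglyoxal through the glyoxalases.

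All values are log2 of the deposited probe set signal unless a fold is named, and a difference is called where the Benjamini-Hochberg adjusted p over all 5449 genes is under 0.05. All 5 genes lay above the background level of 4.48 (log2) on all 18 arrays. Within 5 of the groups the least alike pair of arrays correlated at 0.990 to 0.995 over all genes, and in day 10 tanks at 0.974. Replicate 2 of the day 10 tanks stood apart: its mean correlation with its own group was 0.977, and it reached 0.980 with an array of another group. The lactate genes were therefore also fitted without it, whereas the values of other genes and of lists on day 10 rest on all 3 tank arrays. The difference between the 3′ and 5′ probe sets, over 8 control pairs, a sign of RNA or cDNA length, was lowest in day 2 tanks (mean 0.83 ± 0.06, SD, n = 3) and highest in day 10 vials (1.78 ± 0.07). It was 1.00 ± 0.03 in day 2 vials, 1.46 ± 0.07 and 1.15 ± 0.09 in day 5 vials and tanks, and 1.36 ± 0.09 in day 10 tanks. Its part in the results was not tested. The 5 genes have coding lengths of 1491 to 1851 nt, and the 3685 genes of 900 nt or more had a median tank minus vial difference of 0.09, 0.11 and 0.10 on days 2, 5 and 10.

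**Figure D1:**
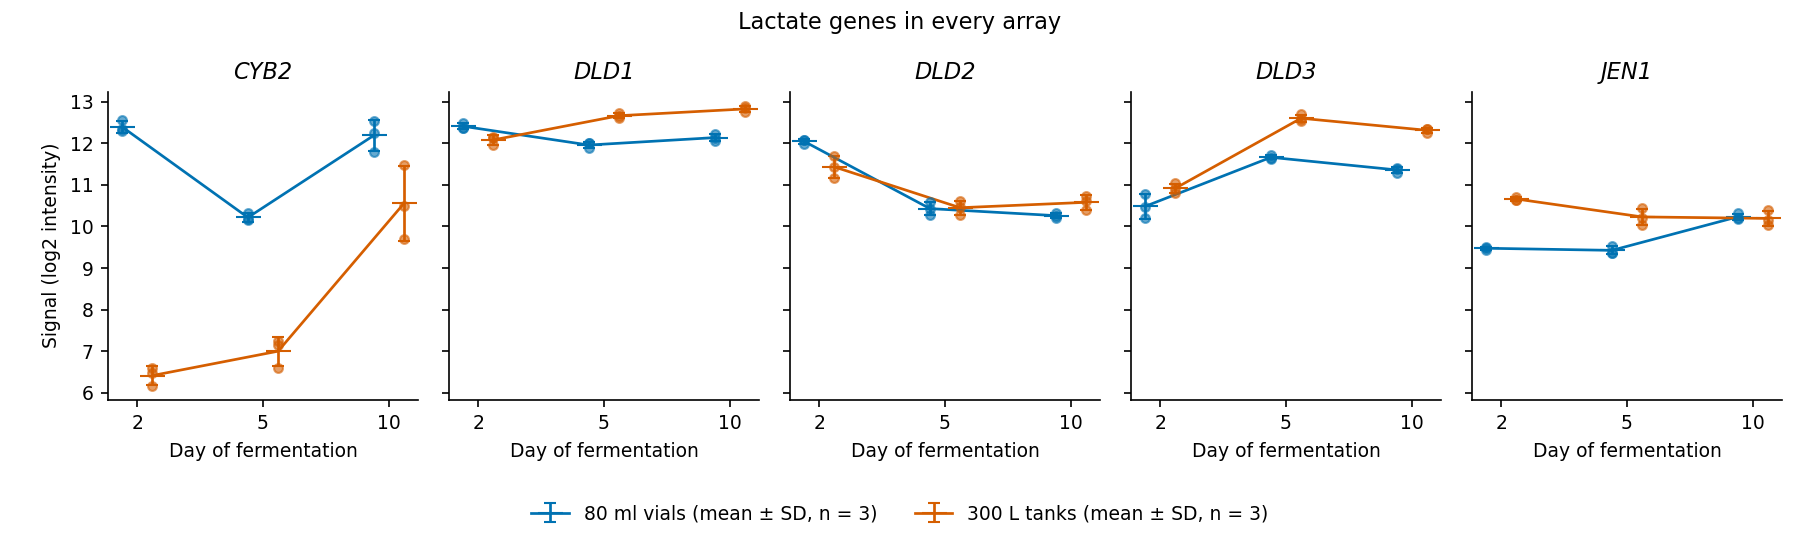
Signal of each lactate gene (log2 intensity, vertical axis) by day of fermentation, with 1 point per array and lines through the group means (bars show the SD, n = 3) for vials in blue and tanks in orange. CYB2 spans 6.17 to 12.56 over the arrays, whereas the other 4 genes lie between 9.36 and 12.89.

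CYB2, JEN1 and the DLD genes did not move as a block. On day 2 CYB2 was 63-fold lower in tanks than in vials while JEN1, the lactate permease gene, was 2.27-fold higher. DLD1 and DLD2 were lower in tanks by 1.26-fold and 1.53-fold, and DLD3 was higher by 1.35-fold. By day 10 the CYB2 gap had narrowed to 3.1-fold, JEN1 no longer showed a called difference, and DLD1 and DLD3 were higher in tanks by 1.61-fold and 1.93-fold.

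CYB2 (YML054C) had the widest range of the 5 genes. In vials its signal on day 2 was 12.34, 12.29 and 12.56 in replicates 1 to 3, then 10.33, 10.18 and 10.14 on day 5, and 12.54, 12.24 and 11.78 on day 10. In tanks it was 6.48, 6.60 and 6.17 on day 2, then 7.15, 7.25 and 6.60 on day 5, and 11.47, 10.50 and 9.69 on day 10. Every vial array was thus above every tank array of the same day. Vials dipped on day 5 and returned, whereas tanks stayed low until day 5. The tank minus vial difference was -5.98 on day 2 (SE 0.31, adjusted p = 1.22e-10), the second largest fall among the 5449 genes. It was -3.21 on day 5 (adjusted p = 3.08e-07) and -1.63 on day 10 (adjusted p = 0.000304). Leaving out day 10 tank replicate 2, which lay near its group mean of 10.55 for CYB2, gave -1.61 on day 10. Over all 18 cases of a single array left out, the day 10 difference ranged from -2.09 to -1.20 (highest adjusted p = 0.00256). With arrays weighted by quality the day 10 difference was -2.32 (adjusted p = 1.82e-07). Among the alternative settings the highest adjusted p for this difference was 0.0145. The 3 day 10 tank arrays spread widely (SD 0.89, against 0.10 to 0.38 in the other groups), with replicate 1 highest and replicate 3 lowest. The fit gave CYB2 the same SE of 0.31 on each day.

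Over time, CYB2 fell in vials from day 2 to day 5 by 2.18 (adjusted p = 1.03e-05) and rose again from day 5 to day 10 by 1.97 (adjusted p = 0.000224). Its day 10 minus day 2 difference in vials was -0.21 (95% interval -0.86 to 0.45, adjusted p = 0.562). In tanks the day 5 minus day 2 difference was 0.59 and was not called (95% interval -0.07 to 1.24, adjusted p = 0.0982). Without day 10 tank replicates 1 or 3 the adjusted p was 0.0241 or 0.0321 at the same difference, and without day 5 tank replicate 3 the difference was 0.78 (adjusted p = 0.0497). With only the compared groups in the fit it was called at 0.59 (adjusted p = 0.0168). From day 5 to day 10 CYB2 rose in tanks by 3.55, or 11.7-fold (SE 0.31, adjusted p = 5.83e-07), the fifth largest rise of all genes in that comparison, and its vial rise over the same days was the 11th largest. With arrays weighted by quality the tank rise was 2.82 (adjusted p = 2.97e-07). With single arrays left out the tank rise ranged from 3.09 to 3.98. Among the alternative settings the highest adjusted p for this rise was 0.00415. Ordered by level, CYB2 was highest in day 2 and day 10 vials, whose ranges overlapped, then in day 10 tanks and day 5 vials, which also overlapped. Day 5 tanks and day 2 tanks came last and did not overlap.

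JEN1 (YKL217W) followed another course. In vials its signal was 9.52, 9.44 and 9.48 on day 2, then 9.36, 9.54 and 9.37 on day 5, and 10.18, 10.32 and 10.19 on day 10. In tanks it was 10.63, 10.64 and 10.71 on day 2, then 10.44, 10.21 and 10.04 on day 5, and 10.16, 10.40 and 10.03 on day 10. Tank arrays lay above vial arrays on days 2 and 5, and the scales overlapped on day 10. The tank minus vial difference was 1.18 on day 2 (SE 0.11, adjusted p = 4.28e-08) and 0.80 on day 5 (adjusted p = 9.25e-06). On day 10 it was -0.04 (95% interval -0.26 to 0.19, adjusted p = 0.781), or -0.22 and called with arrays weighted by their quality (adjusted p = 0.0147). JEN1 was the only gene of the 5 that was higher in tanks on day 2 and had a smaller difference afterwards.

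With time, JEN1 in vials had a difference of -0.05 from day 2 to day 5 (adjusted p = 0.685) and then rose by 0.81 to day 10 (adjusted p = 4.54e-05). In tanks it fell by 0.43 from day 2 to day 5 (SE 0.11, adjusted p = 0.00171), with a further difference of -0.04 to day 10 (adjusted p = 0.827). Over the whole course JEN1 rose in vials by 0.76 (adjusted p = 7.42e-06) and fell in tanks by 0.47 (adjusted p = 0.00076). The highest JEN1 level was in day 2 tanks. Day 10 vials, day 5 tanks and day 10 tanks came next with overlapping ranges, and day 2 and day 5 vials were lowest and overlapped too.

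DLD1 (YDL174C), the D-lactate dehydrogenase that shares its electron acceptor with Cyb2, varied little. Its vial signal was 12.37, 12.36 and 12.49 on day 2, then 11.88, 12.00 and 12.00 on day 5, and 12.22, 12.12 and 12.07 on day 10. Its tank signal was 12.16, 12.14 and 11.95 on day 2, then 12.65, 12.74 and 12.61 on day 5, and 12.89, 12.85 and 12.74 on day 10. Tanks were thus the lower scale on day 2 and the higher scale on days 5 and 10, with no overlap on any day. The differences were -0.33 on day 2 (SE 0.08, adjusted p = 0.00187), 0.70 on day 5 (adjusted p = 2.81e-06) and 0.69 on day 10 (adjusted p = 3.51e-06). From day 2 to day 5 DLD1 fell in vials by 0.45 (adjusted p = 0.00015) and rose in tanks by 0.58 (adjusted p = 8.31e-06). From day 5 to day 10 it differed by 0.18 in vials and 0.16 in tanks, neither of them called (adjusted p = 0.116 and 0.135). Its fall of 0.27 in vials from day 2 to day 10 (adjusted p = 0.00742) was -0.16 and not called when each array was centred on its median (adjusted p = 0.0982), and the median of all genes in that comparison was -0.23.

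DLD2 (YDL178W), the mitochondrial D-2-hydroxyglutarate dehydrogenase, fell early at both scales. Its vial signal was 12.08, 11.98 and 12.08 on day 2, then 10.58, 10.43 and 10.28 on day 5, and 10.33, 10.20 and 10.25 on day 10. In tanks it was 11.44, 11.17 and 11.69 on day 2, then 10.61, 10.28 and 10.46 on day 5, and 10.39, 10.74 and 10.61 on day 10. Day 2 was the high point at both scales and did not overlap the later days. The fall from day 2 to day 5 was 1.62 in vials (SE 0.13, adjusted p = 1.46e-08) and 0.98 in tanks (adjusted p = 3.26e-06), and from day 5 to day 10 the differences were -0.17 and 0.13 (adjusted p = 0.34 and 0.456). Without day 10 tank replicate 2 the tank difference was 0.049.

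Between the scales, DLD2 was lower in tanks on day 2 at -0.61 (SE 0.13, adjusted p = 0.000374) and differed by 0.02 on day 5 (95% interval -0.25 to 0.30, adjusted p = 0.892). On day 10 DLD2 was 0.32 higher in tanks (adjusted p = 0.0435), a call that did not hold without day 10 tank replicate 2 (0.24, adjusted p = 0.161). It was also lost without day 10 tank replicate 3 (0.31, adjusted p = 0.0927) and without day 10 vial replicates 1, 2 or 3 (0.35, 0.29 and 0.32, adjusted p = 0.0571, 0.117 and 0.0844). Leaving out any day 2 vial array, day 2 tank replicate 1, day 5 tank replicate 3 or day 5 vial replicate 2 kept the 0.32 and gave adjusted p between 0.0508 and 0.0534. The call was lost as well with only the compared groups in the fit (adjusted p = 0.0584) and with each array centred on its median (0.31, adjusted p = 0.0547).

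DLD3 (YEL071W), the cytosolic relative, ran opposite to DLD2 in time. Its vial signal was 10.46, 10.20 and 10.79 on day 2, then 11.72, 11.65 and 11.62 on day 5, and 11.28, 11.39 and 11.41 on day 10. Its tank signal was 10.81, 10.90 and 11.04 on day 2, then 12.57, 12.53 and 12.70 on day 5, and 12.24, 12.35 and 12.34 on day 10. Day 2 was the low point at both scales, and tank arrays lay above vial arrays on every day, though by little on day 2. DLD3 rose from day 2 to day 5 by 1.18 in vials (SE 0.12, adjusted p = 1.61e-07) and by 1.68 in tanks (adjusted p = 1.7e-09). The tank minus vial difference was 0.43 on day 2 (adjusted p = 0.00272), 0.94 on day 5 (adjusted p = 4.41e-06) and 0.95 on day 10 (adjusted p = 3.86e-06).

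From day 5 to day 10 DLD3 differed by -0.30 in vials and -0.29 in tanks, with adjusted p = 0.0576 and 0.0588. Without day 2 vial replicate 2 or replicate 3, which varied most for this gene, DLD3 was called lower in both comparisons at the same differences (adjusted p between 0.0219 and 0.0283). The vial difference was also called with arrays weighted by quality (-0.29, adjusted p = 0.0224), the trended and robust prior (adjusted p = 0.0499), only the compared groups in the fit (adjusted p = 0.0344) and the fixed replicate block (adjusted p = 0.0486). The 6 group means of DLD3 fell in the order day 5 tanks, day 10 tanks, day 5 vials, day 10 vials, day 2 tanks and day 2 vials, with no overlap between neighbours.

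**Figure D2:**
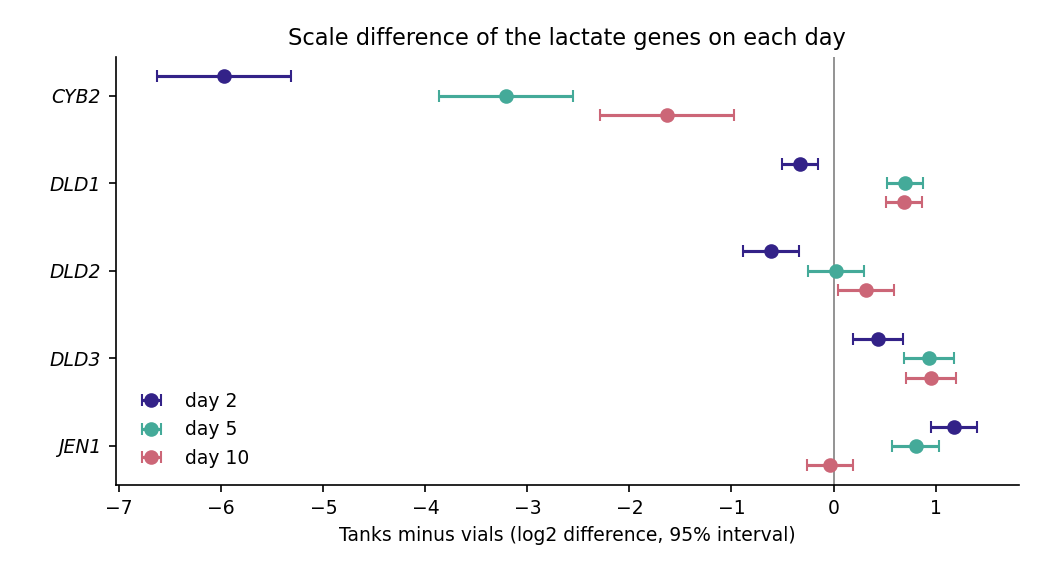
Tank minus vial difference (log2, horizontal axis) of each lactate gene on days 2, 5 and 10, with 95% intervals from the limma fit. CYB2 lies at -5.98, -3.21 and -1.63, JEN1 falls from 1.18 to -0.04, and DLD1 goes from -0.33 on day 2 to 0.70 on day 5.

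Counted together, all 5 genes differed between the scales on day 2, 2 higher and 3 lower in tanks, where 77.3% of all genes were called, 38.2% higher and 39.1% lower. On day 5, 4 of the 5 were called, 3 higher and 1 lower, against 61.9% of all genes (33.1% higher and 28.8% lower). On day 10 again 3 were higher and 1 lower, against 58.7% (32.3% higher and 26.4% lower). The median difference of the 5 genes was -0.33, 0.70 and 0.32 on the 3 days, and that of all genes was -0.01, 0.02 and 0.03. The share of called members was thus near that of all genes on each day, and the directions within the group were mixed. The 2 scales did not overlap for any of the 5 genes on day 2, as for 82.2% of all genes. They did not overlap for 4 of the 5 on day 5 and on day 10, as for 66.2% and 61.6% of all genes.

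From day 2 to day 5, 4 of the 5 genes were called in vials (1 higher, 3 lower) against 67.6% of all genes (26.5% higher, 41.1% lower). In tanks 4 were called (2 higher, 2 lower) against 73.3% (34.2% higher, 39.1% lower). From day 5 to day 10, 2 were called in vials, CYB2 and JEN1, both higher, against 30.7% of all genes called in either direction and 11.3% higher. In tanks CYB2 alone was called, higher, against 39% in either direction and 15.3% higher. Over the whole course 4 were called in vials (2 higher, 2 lower) against 73.4% of all genes (27.1% higher, 46.3% lower). All 5 were called in tanks (3 higher, 2 lower) against 78.8% (35.5% higher, 43.3% lower).

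**Figure D3:**
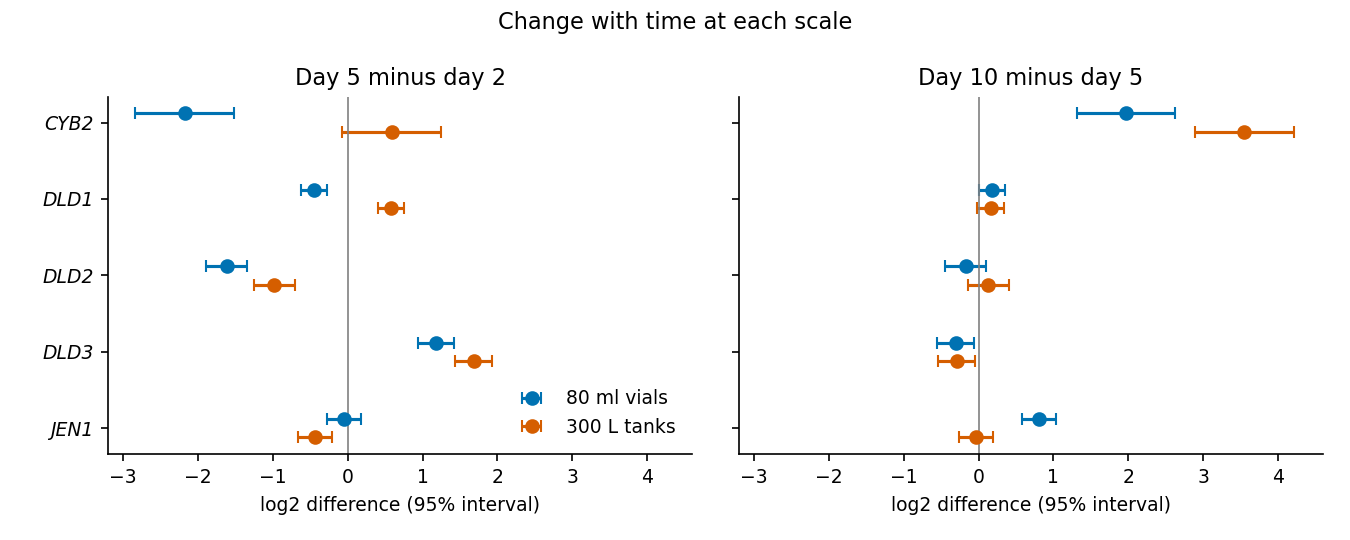
Change of each lactate gene (log2 difference, horizontal axis, with 95% intervals) from day 2 to day 5 and from day 5 to day 10, in vials (blue) and tanks (orange). DLD2 and DLD3 made their change by day 5 at both scales, whereas CYB2 rose from day 5 to day 10 by 1.97 in vials and 3.55 in tanks.

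The change with time was also tested for a difference between the scales. From day 2 to day 5 it differed for all 5 genes, 4 with a more positive change in tanks and 1 with a more negative one, against 58.8% of all genes (32.9% and 25.9%). CYB2 changed by 2.76 more in tanks than in vials (SE 0.44, adjusted p = 6.53e-05), DLD1 by 1.03 more (adjusted p = 2.78e-06), DLD2 by 0.64 more (adjusted p = 0.00731) and DLD3 by 0.50 more (adjusted p = 0.0151). JEN1 changed by -0.38 (adjusted p = 0.0405). The JEN1 call was lost, with adjusted p between 0.0516 and 0.121 and differences between -0.40 and -0.29, without any 1 of the 6 day 2 arrays, of day 5 tank replicates 2 and 3 or of day 5 vial replicate 2.

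From day 5 to day 10 only 4.92% of all genes differed in their change between the scales, 2.62% with a more positive change in tanks and 2.29% with a more negative one, and 2 of the 5 lactate genes were among them, 1 each way. JEN1 changed by -0.84 in tanks relative to vials (SE 0.15, adjusted p = 0.00353). CYB2 changed by 1.58 more in tanks (SE 0.44, adjusted p = 0.0482), a call at the edge of the threshold. With array weights the CYB2 value was 0.78 (adjusted p = 0.116), and it kept its call in only 3 of 18 cases of a single array left out. Those 3 cases left out day 10 tank replicate 2 (1.61, adjusted p = 0.0337), day 10 tank replicate 3 or day 10 vial replicate 1, and in the other 15 cases the value lay between 1.12 and 1.70.

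**Figure D4:**
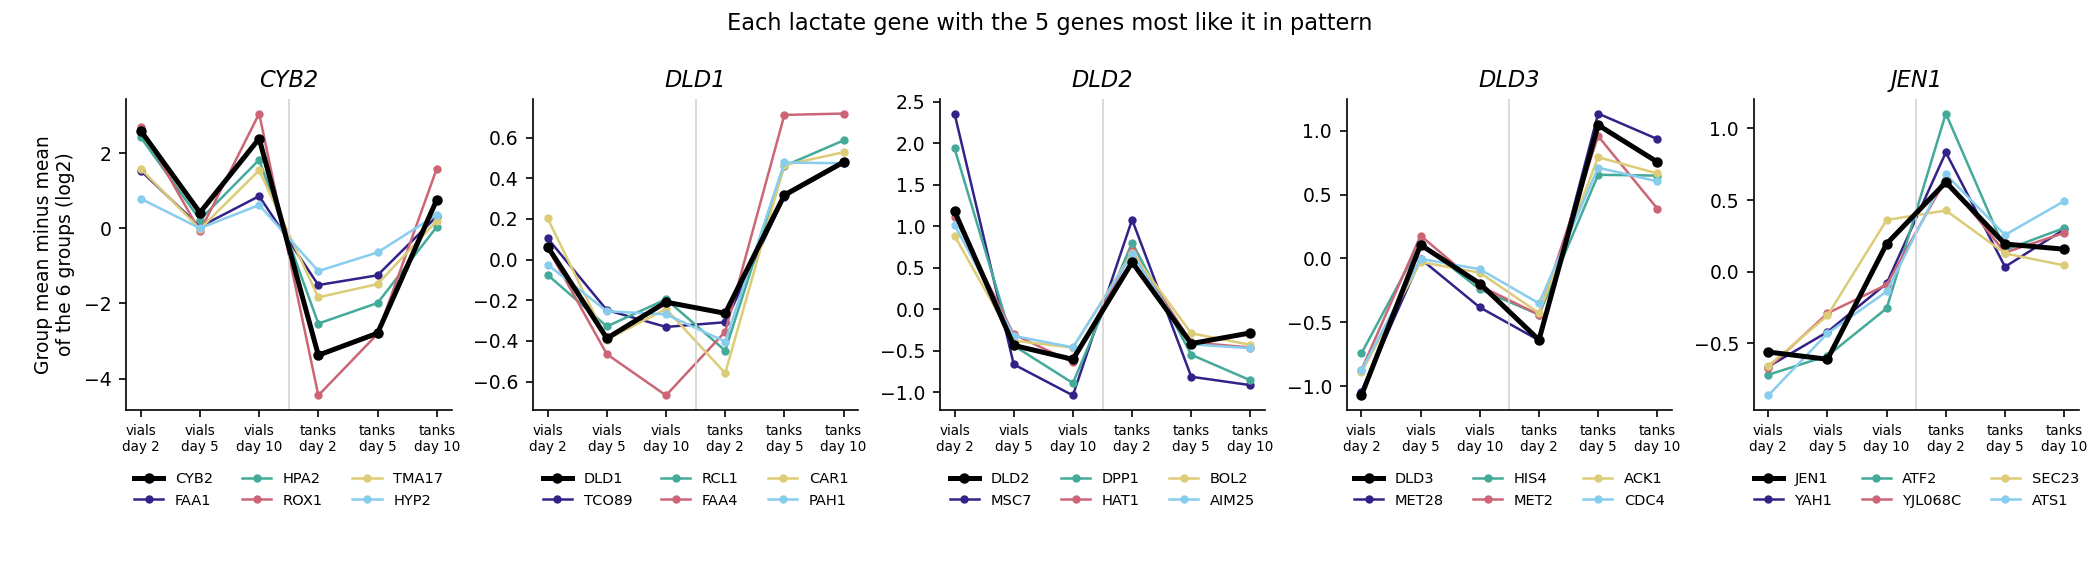
Group means of each lactate gene (black) and of the 5 genes with the highest Pearson correlation to it over 18 arrays (coloured), each centred on its mean over the 6 groups (log2, vertical axis). The 3 groups left of the grey line are vials and those to its right tanks, and CYB2 and ROX1 share the day 5 dip in vials.

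The genes most like each member were looked for among the 5399 other genes above background in at least 1 group, by Pearson correlation over the 18 arrays. Arrays of a group share their fermentation condition, so the correlations describe the group pattern. For CYB2 the 5 closest were FAA1, a fatty acyl-CoA synthetase (r = 0.980), HPA2, an acetyltransferase (0.979), ROX1, the heme-dependent repressor of hypoxic genes (0.977), TMA17, a proteasome assembly chaperone (0.974 over the arrays), and HYP2, the aerobic form of the translation factor eIF5A (0.974). ROX1 had group means of 13.17, 10.40 and 13.54 in vials and 6.03, 7.67 and 12.07 in tanks on days 2, 5 and 10, the same dip and late rise as CYB2. FAA1 ran over a smaller range, with 13.79, 12.30 and 13.12 in vials and 10.75, 11.01 and 12.57 in tanks.

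DLD3 was most like MET28, a regulator of sulfur metabolism (r = 0.980), HIS4 of histidine synthesis (0.978), MET2 of methionine synthesis (0.975), ACK1 (0.974) and CDC4 (0.971). MET28 had means of 10.75, 11.79 and 11.41 in vials and 11.15, 12.93 and 12.73 in tanks. DLD2 was most like MSC7 (r = 0.976), the phosphatase gene DPP1 (0.973), the histone acetyltransferase gene HAT1 (0.968), BOL2 (0.968) and AIM25 (0.967).

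DLD1 and JEN1 had looser companions. DLD1 was most like TCO89, a TORC1 subunit (r = 0.95), RCL1 (0.949), the acyl-CoA synthetase gene FAA4 (0.940), the arginase gene CAR1 (0.931) and PAH1 (0.927). JEN1 was most like YAH1, a mitochondrial ferredoxin (r = 0.894), the alcohol acetyltransferase gene ATF2 (0.893), YJL068C (0.886), SEC23 (0.883) and ATS1 (0.881). No lactate gene was among the 5 closest to another.

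Between the 5 genes themselves, the correlation over the 18 arrays was strongest for DLD2 with DLD3, at r = -0.73. It was near -0.9 within each scale (-0.89 in 9 vial arrays and -0.91 in 9 tank arrays). Within the groups it was 0.37, so the opposition lay between the group means. Within tanks DLD1 correlated with DLD2 at -0.91 and with DLD3 at 0.89. CYB2 and JEN1 correlated at r = -0.58 over all arrays, 0.46 within vials and -0.50 within tanks. CYB2 and DLD1, which both feed cytochrome c, correlated at r = -0.01 over all arrays but at 0.83 within vials and 0.76 within tanks. These are descriptions over arrays of which each group shares a condition.

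The regulators that act on lactate genes were counted next, as were the pathways around them. These lists were drawn up with earlier results of these data known, and on day 2 they stand against 38.2% of all genes higher, 39.1% lower and a median of -0.01. The shares of all genes higher and lower were 33.1% and 28.8% on day 5 and 32.3% and 26.4% on day 10. Of 14 regulators 2 were higher and 6 lower in day 2 tanks, with a median of -0.15. HAP1, the heme-responsive activator of CYB2, differed by 0.01 on day 2 (adjusted p = 0.968), with 12.13 ± 0.07 (SD, n = 3) in vials and 12.14 ± 0.12 in tanks. HAP1 was lower in day 5 tanks at -0.29 (adjusted p = 0.0481) and differed by -0.20 on day 10 (adjusted p = 0.161). HAP4, the regulated subunit of the CCAAT-binding activator of respiratory genes, was lower in day 2 tanks (11.47 ± 0.13) than in vials (13.43 ± 0.01), a difference of -1.96 (adjusted p = 3.49e-11). On days 5 and 10 HAP4 differed by 0.02 and -0.11 (adjusted p = 0.822 and 0.29). Of the other subunits of this activator, HAP3 differed by -1.16, -0.06 and -0.73 on days 2, 5 and 10, called on days 2 and 10. HAP2 and HAP5 had day 5 means of 10.37 and 9.45 in tanks and 9.48 and 8.71 in vials. Whether HAP4 or the other subunits have a part in the CYB2 difference was not tested. ROX1 differed by -7.14, -2.73 and -1.47 on the 3 days, all called.

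The carbon regulators moved in other ways. ADR1, an activator of genes for non-fermentable carbon, was higher in day 2 tanks by 0.92 (adjusted p = 6.5e-05) and lower on days 5 and 10 by -1.46 and -1.51. CAT8, an activator of JEN1 and of gluconeogenesis, differed by -0.12 on day 2 (adjusted p = 0.416) and was lower in tanks on days 5 and 10 at -0.78 and -1.07. CAT8 rose from day 2 to day 5 by 2.20 in vials and 1.54 in tanks, days over which JEN1 differed by -0.05 and -0.43. Whether CAT8 has a part in the JEN1 levels was not tested, and its transcript does not measure the activity of its protein. MIG1, the glucose repressor, was lower in day 2 tanks at -1.08 (adjusted p = 0.000368) and not called on days 5 and 10 at 0.52 and -0.29. SNF4, a subunit of the Snf1 kinase, was higher on day 2 at 0.76. SNF1, the gene of the kinase itself, had means of 10.66 in day 2 tanks and 11.20 in day 2 vials. REG1, also in this list, was lower in day 2 tanks at -1.54 (adjusted p = 2.39e-08).

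Among the partners of Cyb2 and Dld1, 4 of 8 genes of cytochrome c and its assembly were lower in day 2 tanks and 2 higher (median -0.75). CYC1, the main cytochrome c gene, stood at 11.53 ± 0.05 in day 2 vials and at 5.78 ± 0.25 in day 2 tanks (SD, n = 3), a difference of -5.75 (adjusted p = 7.24e-11). SUE1, which acts in cytochrome c turnover, differed by -5.96, and the other cytochrome c gene CYC7 by -1.55. The cytochrome c peroxidase gene CCP1 was higher at 1.38 and the heme lyase gene CYT2 at 0.58. CYC1 correlated with CYB2 at r = 0.97 over the 18 arrays and with DLD1 at -0.02. All 8 genes of a list drawn up as heme-activated aerobic genes, ROX1 among them, were lower in day 2 tanks (median -1.42). Not all 8 are aerobic genes, since CYC7 encodes the hypoxic isoform of cytochrome c. CYC1, CYC7 and CYT1 are also counted in the cytochrome c list. On day 5 the heme list had 4 lower and 3 higher members, against 28.8% of all genes lower and 33.1% higher. On day 10 it had 3 lower and 1 higher, against 26.4% and 32.3%.

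**Figure D5:**
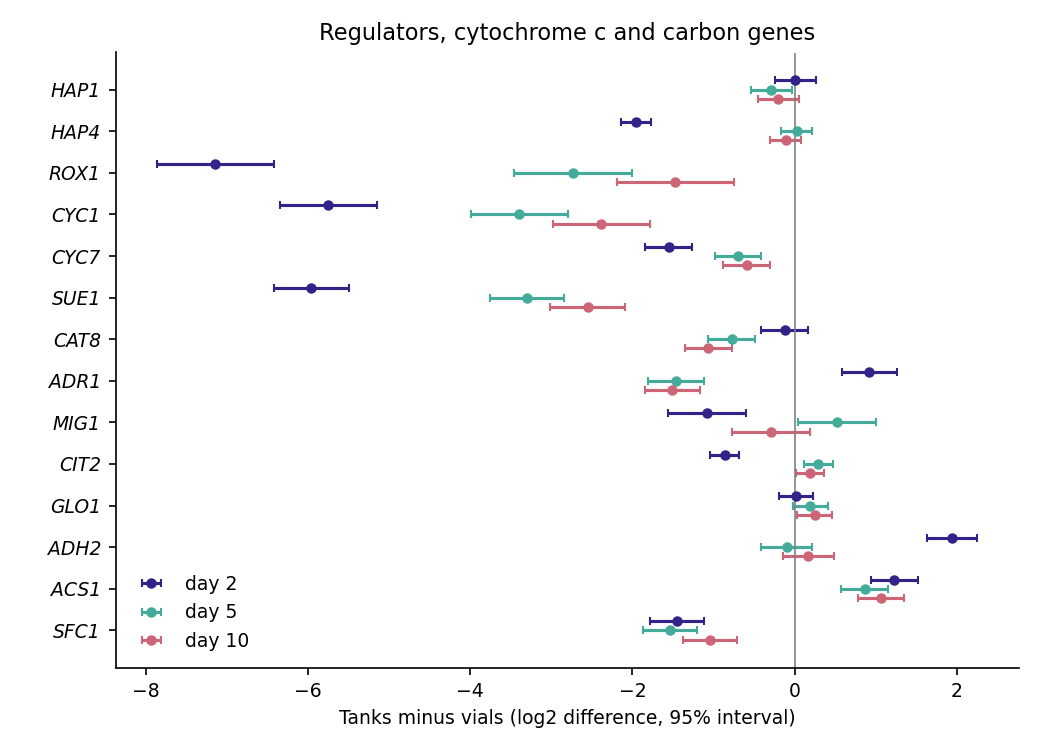
Tank minus vial difference (log2, horizontal axis, with 95% intervals) on each day for regulators, cytochrome c genes and carbon genes named in the text. ROX1, CYC1 and SUE1 lie below -5 on day 2, HAP4 is at -1.96 on day 2 and near 0 later, and HAP1 lies between -0.29 and 0.01.

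The other dehydrogenases that feed the respiratory chain were higher in day 2 tanks in 5 of 9 cases and lower in 3 (median 0.37). NDE2, an external NADH dehydrogenase, was higher at 1.23 and the succinate dehydrogenase gene SDH1 at 1.07, whereas the proline oxidase gene PUT1 was lower at -5.66 and the internal NADH dehydrogenase gene NDI1 at -0.75. NDE2 was, of the 35 genes named by rule from these lists, the one most like JEN1 (r = 0.88), and SDH1 correlated at -0.82 with CYB2.

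Genes around D-lactate and D-2-hydroxyglutarate were higher in 4 of 7 cases on day 2 and lower in 1 (median 0.44). GLO1, the glyoxalase that takes methylglyoxal, differed by 0.01 (adjusted p = 0.901). GLO2, the next enzyme, which releases D-lactate, was lower in tanks at -1.72 (adjusted p = 9.97e-08), and remained lower at -0.52 and -0.43 on days 5 and 10. GLO4, which acts at the same step as GLO2, went the other way. Its means on days 2, 5 and 10 were 10.19, 10.39 and 9.91 in tanks and 9.75, 9.79 and 9.77 in vials. The methylglyoxal and aldose reductase genes GRE2 and GRE3 were higher in day 2 tanks at 0.92 and 1.17.

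For the retrograde pathway, of which DLD3 is a known target, 4 of 12 genes were higher and 6 lower on day 2 (median -0.13). CIT2, the standard reporter of this pathway, was lower in day 2 tanks at -0.86 (adjusted p = 8.15e-08) and higher on day 5 at 0.29, whereas DLD3 was higher at 0.43 and 0.94. Both rose from day 2 to day 5, CIT2 by 0.42 in vials and 1.58 in tanks, and they correlated at r = 0.68 over the 18 arrays. The negative regulator MKS1 was lower on day 2 at -1.16, and IDH1 and IDH2 were higher at 0.85 and 0.71. Of the activator genes, RTG3 was lower in day 2 tanks at -0.54 (adjusted p = 6.76e-05). RTG1 had means of 7.08 in day 2 tanks and 7.82 in day 2 vials.

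Of 14 acid transporters, Jen1 turnover factors and mitochondrial pyruvate carriers, 6 were higher and 4 lower in day 2 tanks (median 0.00), and 9 were higher and 1 lower on day 10 (median 0.40), against 32.3% and 26.4% of all genes on day 10. MCH2, a relative of the monocarboxylate permeases, was higher on day 2 at 2.20, and the putative ammonium exporter gene ATO3 at 1.36. The pyruvate carrier genes MPC3 and MPC1 were lower at -0.76 and -0.72. MPC1 correlated with DLD2 at r = 0.89.

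Genes of growth on non-fermentable carbon were higher in day 2 tanks in 7 of 10 cases and lower in 1 (median 0.57). They were higher in 8 on day 5 (median 0.65) and in 7 on day 10 (median 0.59), with 1 lower each time, against 33.1% of all genes higher and 28.8% lower on day 5 and 32.3% and 26.4% on day 10. ADH2, the ethanol-oxidising alcohol dehydrogenase, was higher on day 2 at 1.94 and ACS1, an acetyl-CoA synthetase, at 1.23. The carrier gene SFC1 was the lower member, at -1.46, -1.54 and -1.05 on the 3 days. Of 10 genes of pyruvate use 5 were higher and 2 lower on day 2 (median 0.23), among them the pyruvate dehydrogenase genes PDA1 and PDB1 at 0.99 and 0.87, and the pyruvate decarboxylase gene PDC6 lower at -0.63. PYC1, a pyruvate carboxylase, was also lower at -0.18 (adjusted p = 0.041) and correlated with DLD3 at r = 0.92.

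The adjacent genes on the chromosome in the S. cerevisiae reference were compared between the scales on day 2. Next to CYB2, SPC2 differed by 0.13 and YML054C-A by 0.03 (adjusted p = 0.516 and 0.85). Next to JEN1, URA1 differed by -0.14 (adjusted p = 0.397) and SRY1 by 0.33 (adjusted p = 0.0353). Beside DLD3, DSF1 was higher in day 2 tanks at 1.95 (adjusted p = 1.14e-08) and RMD6 differed by 0.15 (adjusted p = 0.278). Beside DLD1, PAR32 was lower at -1.91 and AIR2 differed by 0.07. Beside DLD2, YDL177C was lower at -1.25 and PCL9 higher at 0.26.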

How the data were processed

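Total RNA (100 ng per sample) was amplified and 7.5 µg of biotin-labelled product hybridised per array, per the labels' protocols. Per the submitters' processing notes, the tools were RMA and the Affymetrix Expression Console, whose versions the sources used here do not give. Intensities as deposited by the authors run from 4.79 to 39396, a linear scale, and log2 was taken of them. RMA, as generally run, gives arrays a shared distribution, so a change common to most genes is not measured.

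Of 10928 probe sets, 5498 had 1 listed gene that matched an S. cerevisiae reference of 6477 genes (R64, used only for names, lengths and neighbours), standing for 5449 genes; the probe set with the highest mean was kept for 47 genes with several. Left out were 213 controls, 3470 without a listed gene, 1 with several and 1746 of genes outside that reference, taken to be S. pombe. The 95th percentile of the latter set the background (log2 4.48, intensity 22.3).

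The model was limma 3.58.1 (with data.table version 1.17.8, R 4.3.3) with 6 group means on the log2 values of 18 arrays, 12 residual degrees of freedom, 11 comparisons and Benjamini-Hochberg adjustment over 5449 genes within each. Spread between the named biological replicates is what the p-values reflect, and 3 arrays per group limit the precision. The method was tested on simulated data.

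The members and lists were chosen with earlier results of these data known. Named by rule from each of 9 lists were up to 2 called rises and 2 called falls on day 2. HAP1, HAP4, CAT8, ADR1, MIG1, ROX1, CYC1, CYC7, CIT2 and GLO1 were always named, as were the 5 genes most correlated with each member. The 2 adjacent measured genes of each member are given as well. A few other list members are given beside named genes of the same complex, step or pathway. Alternatives were repeated quantile normalization, median centring, a filter on dim genes, the most variable probe set, all probe sets, a trended and robust prior, arrays weighted by quality, a fit of the compared groups alone, a 2-fold minimum, the replicate number as a fixed or random block, and each array left out. Figures used Python 3.11.15, matplotlib 3.10.9 and pandas 2.3.3. Promoters and proteins were not analysed here.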

Additional observations from a re-analysis of the deposited data

Results flagged for a closer look

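The change from day 2 to day 5 differed between the scales for all 5 lactate genes by the interaction term of the fit. This term was called for 58.8% of all genes. The tank change minus the vial change was 2.76 for CYB2, 1.03 for DLD1, 0.64 for DLD2, 0.50 for DLD3 and -0.38 for JEN1 (log2). For CYB2 and DLD1 the vial change was downward (-2.18 and -0.45) and the tank change upward (0.59, not called, and 0.58). For DLD2 both scales fell and vials fell more, and for DLD3 both rose and tanks rose more. The JEN1 call was lost in 9 of 18 cases of a single array left out. From day 5 to day 10 the change differed between the scales for CYB2 (1.58, adjusted p = 0.0482) and JEN1 (-0.84, adjusted p = 0.00353). Of all genes 4.92% were called. The CYB2 call was lost in 15 of 18 cases of a single array left out. JEN1 rose in vials by 0.81 over these days and differed by -0.04 in tanks.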

How the results depend on the processing

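For the 55 differences of the 5 genes (11 comparisons each), the 11 alternatives other than left-out arrays gave 605 values, of which 561 kept direction and side of the threshold, 32 lost and 8 gained a call and 4 turned sign. Leaving out each of 18 arrays gave 990 values, of which 933 kept both, 35 lost and 7 gained a call and 15 turned sign. The turned values were of uncalled differences: JEN1 in vials from day 2 to day 5 (0.14 with repeated quantile normalization, 0.037 with median centring, 0.0054 with array weights), DLD2 between the scales on day 5 (-0.033 with array weights, -0.060 to 0.11 with arrays left out), JEN1 between the scales on day 10 (-0.14 to 0.045 with arrays left out) and in tanks from day 5 to day 10 (-0.14 to 0.068), and the difference between the scales in the change from day 5 to day 10 for DLD1 (-0.051 to 0.027) and DLD3 (-0.026 to 0.062).

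Requiring a 2-fold change left 2 members called between the scales on day 2 (CYB2 and JEN1) and 1 on days 5 and 10. Of all genes it left 1742, 755 and 663 called on the 3 days, in place of 4211, 3374 and 3196. In vials 3, 1 and 1 members were left (day 2 to 5, 5 to 10 and 2 to 10). Of all genes 1135, 144 and 1489 were left there, in place of 3684, 1674 and 4000. In tanks 1, 1 and 2 members were left in the same order. Of all genes 1531, 206 and 2011 were left there, in place of 3996, 2123 and 4294. The tests of the scale difference in change kept 2 and 1 members. Of all genes they kept 1177 and 75, in place of 3204 and 268. The smaller folds set these losses. For the change from day 5 to day 10 between the scales, 1 of the 2 calls was left under repeated quantile normalization (CYB2 1.38, adjusted p = 0.075), the trended robust prior (CYB2 adjusted p = 0.0508), only the groups compared (CYB2 adjusted p = 0.12) and the random replicate block (CYB2 adjusted p = 0.0536); the cause was not tested. With the fixed replicate block 2 members instead of 1 were called in tanks from day 5 to day 10 (DLD3 at -0.29, adjusted p = 0.0482), and in vials DLD3 was called as well (-0.30, adjusted p = 0.0486); neither the fixed nor the random replicate block changed any other call. Same-numbered arrays deviated together in some pairs only (r over 0.1 in 4 of 9 pairs across scales, range -0.40 to 0.19, and in 7 of 18 across days, range -0.47 to 0.76), so the numbers were not taken as pairs. With arrays left out the members called ranged over 5 to 5, 4 to 4 and 3 to 4 between the scales on days 2, 5 and 10, 4 to 4, 2 to 3 and 4 to 4 in vials (day 2 to 5, 5 to 10 and 2 to 10), 4 to 5, 1 to 2 and 5 to 5 in tanks, and 4 to 5 and 1 to 2 for the scale difference in change. Repeated quantile normalization moved the median of all genes by over 0.1 between the scales on day 2 (from -0.01 to 0.11) and in vials from day 2 to day 5 (-0.16 to -0.04) and to day 10 (-0.23 to -0.09). All 5 genes lay above background on every array, but 5352 to 5364 genes did so on the day 2 tank arrays. CYB2 was dimmest there, at 6.17 to 6.60. Whether dim signal limits its differences that use day 2 tanks was not tested. The 3 arrays per group limit the precision of all these values.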
